A study of Rattus norvegicus with 9 samples.

Results

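The 38 genes described here encode proteins that copy DNA and divide the cell, and they were followed by RNA-Seq in the L4–6 dorsal root ganglia (DRGs) of the injured side in the rat. They form a list of named genes whose transcripts are typical of dividing cells, and the rule that selected them uses no measured value. The list was, however, chosen with earlier results of these data known. All 38 were present among the 20413 genes of the deposited table, and all 38 passed the filter on low values, a mean of at least 0.1 FPKM (fragments per kilobase, corrected for library size) over the 9 libraries, which 17187 genes passed in all. Male Sprague Dawley rats were compared in 3 groups of 3 libraries, collected on day 10. Rats of the chronic post-ischemia pain (CPIP) group had the blood flow of the hind paw stopped by a tight ring around the ankle and then released. Sham rats, labelled as controls, were anesthetized too but wore a ring that had been cut open, so their paws stayed perfused, and rats of the CPIP+EA group had CPIP followed by daily electroacupuncture (EA), a current passed through acupuncture needles in both hind limbs, for 10 days. Every rat was perfused with saline before the ganglia were taken, and a library holds RNA of the whole ganglia with all of their cell types.

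A cell that divides first copies its genome in S phase, with the MCM helicase, the sliding clamp PCNA and a supply of deoxynucleotides. It then enters mitosis under cyclin B and CDK1, separates its chromosomes on a spindle with the help of mitotic kinases and kinesins, and exits when the anaphase-promoting complex marks cyclin B for destruction. Sensory neurons are permanently out of this cycle, so in adult ganglia these transcripts are generally looked for in glia, vascular cells and immune cells. In whole tissue, fewer cells of a type and less RNA per cell cannot be told apart.

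Many genes of this set share short promoter elements, and 3 promoters are shown because their genes carry the main observations below. Mki67 had the widest ratio between libraries among the 37 genes with no library at 0, Birc5 was the gene with an unadjusted p under 0.05 in 2 comparisons, and Mcm5 was the replication gene whose 3 Sham values lay below all others. The sequences are from RefSeq on the rat assembly GRCr8 and run from 250 bases before the annotated start to 50 bases after it. They are read 5′ to 3′ on the strand of the gene, and capitals mark the CHR element, the CCAAT box and the E2F element, on either strand. The letters searched for the CHR element were TTTGAA. For the E2F element the letters TTCCCGC were searched, as were the related form TTCGCGC and the form TTGCCGC, and finally also the form TTGGCGC.
Mki67, chr1:199952544-199952843, minus strand: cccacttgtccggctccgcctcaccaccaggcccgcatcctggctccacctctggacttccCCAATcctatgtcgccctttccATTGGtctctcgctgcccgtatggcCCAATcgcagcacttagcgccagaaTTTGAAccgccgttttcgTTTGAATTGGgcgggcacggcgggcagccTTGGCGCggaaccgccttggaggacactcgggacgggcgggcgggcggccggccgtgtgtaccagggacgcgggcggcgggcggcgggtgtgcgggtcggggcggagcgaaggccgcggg
Birc5, chr10:103571896-103572195, plus strand: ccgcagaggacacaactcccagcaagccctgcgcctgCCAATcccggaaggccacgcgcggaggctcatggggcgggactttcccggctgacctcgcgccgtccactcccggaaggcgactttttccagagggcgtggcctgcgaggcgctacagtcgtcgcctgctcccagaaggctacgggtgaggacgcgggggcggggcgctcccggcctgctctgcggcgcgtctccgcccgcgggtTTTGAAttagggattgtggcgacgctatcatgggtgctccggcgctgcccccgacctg
Mcm5, chr19:13488563-13488862, plus strand: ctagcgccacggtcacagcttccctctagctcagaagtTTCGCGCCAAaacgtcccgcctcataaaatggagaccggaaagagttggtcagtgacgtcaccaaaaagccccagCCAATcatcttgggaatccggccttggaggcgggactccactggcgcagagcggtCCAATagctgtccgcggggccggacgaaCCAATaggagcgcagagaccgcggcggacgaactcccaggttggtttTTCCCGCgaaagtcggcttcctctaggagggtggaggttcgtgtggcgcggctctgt

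The Mki67 window held 2 CHR elements, 4 CCAAT boxes and 1 E2F element, and its second CHR element shares letters with a CCAAT box on the other strand. The Birc5 window held 1 CHR element, close to the start, and 1 CCAAT box. The Mcm5 window held 3 CCAAT boxes, 3 E2F elements of which 2 overlap, and 0 CHR elements. A promoter was found for 32 of the 38 genes. The CHR element, a site of late cell-cycle genes, was in 19 of these 32 (59.4%) against 19.4% of the 27457 rat genes with a promoter of the same length. The CCAAT box was in 22 (68.8%) against 39.6%, and the E2F element, typical of genes of S phase, was in 10 (31.2%) against 10.6%. CHR and CCAAT stood together in 14 (43.8%) against 7.96% of these rat genes. A gene with several promoters was counted if any of them held the element. These matches describe the letters of the windows only. The windows rest on annotated starts, and that of Aurka, which is counted and held no match, may lie inside the gene and not be its promoter.

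The level of the cell division genes in the ganglia was low. Mean FPKM over the 9 libraries ran from 0.308 for Cenpf, a large kinetochore protein, to 33.2 for Pcna, with a median of 1.73, while the median over all tested genes was 7.24. Of the 38 genes, 10 had a mean under 1 FPKM, 13 lay between 1 and 2, 13 between 2 and 5, and 2 were above 5 FPKM. The latter were Pcna, which also serves DNA repair, and Aurka, the centrosomal Aurora kinase, at 10.3 FPKM. The files hold no read counts, and no counting error is given here for a single low value.

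The highest values came from the same libraries in most of the genes. In 27 of the 38 genes (71.1%) the 2 highest of the 9 libraries were Sham 2 and CPIP+EA 3, which was the case for 5% of all tested genes. CPIP+EA 3 was the highest library for 27 genes, against 20.3% of all genes, and Sham 2 was the highest for 9, against 8.75%. The remaining 2 genes were highest in CPIP 2 (Ttk, a spindle checkpoint kinase, with 8.41% of all genes highest there) and in CPIP+EA 1 (Aurka, with 9.94%). Within the Sham group, Sham 2 was the highest library for 34 of 38 genes, against 29.3% of all genes, and within the CPIP+EA group, CPIP+EA 3 was the highest for 36 of 38, against 41.4%. Within the CPIP group, CPIP 2 was the highest for 25 of 38, against 32.7%. This pattern was noticed in these libraries and is given as a description.

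The size of the difference between libraries can be read from log2(FPKM + 0.5) relative to the mean of the 9 libraries. The median over the 38 genes was -0.23, 0.39 and -0.088 in Sham 1 to 3, -0.10, 0.04 and -0.25 in CPIP 1 to 3, and -0.23, 0.024 and 0.56 in CPIP+EA 1 to 3. Over all tested genes the same median stayed between -0.027 and 0.026. The spread within groups had a median SD of 0.34 on the log2 scale for the 38 genes and 0.14 for all tested genes. The 38 genes had a lower median FPKM (1.73 against 7.24), and the spread was not compared at a matched level. The lowest library was CPIP+EA 1 for 14 genes, CPIP 3 for 10 and Sham 1 for 7, against 12.8%, 6.96% and 14.6% of all genes. Each group thus contained at least 1 of the low libraries, and Sham and CPIP+EA each contained 1 of the high ones, as the heat map of the 38 genes shows.

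**Figure D1:**
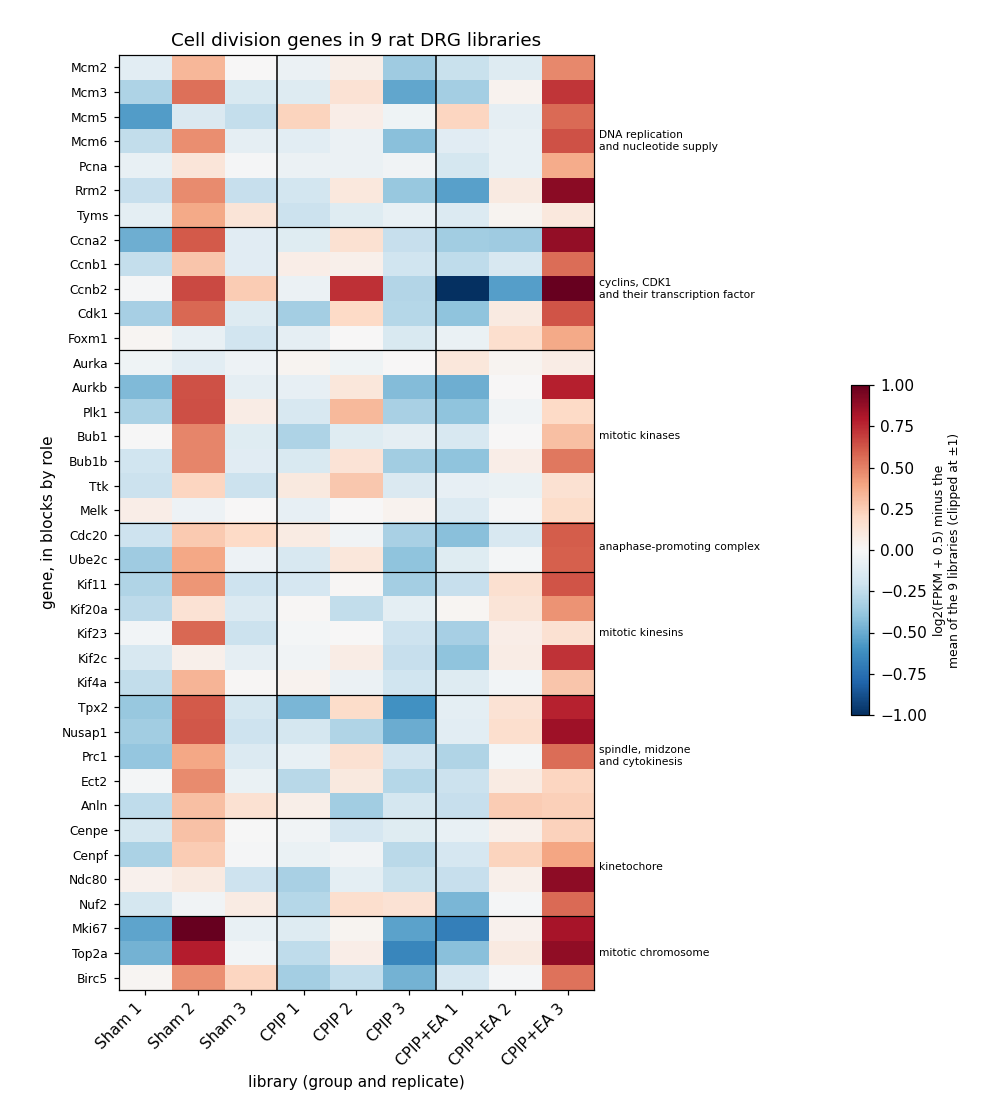
Heat map of the 38 cell division genes (rows, in blocks by role) in the 9 libraries (columns, 3 per group). Color gives log2(FPKM + 0.5) minus the mean of the 9 libraries, clipped at 1, and the columns Sham 2 and CPIP+EA 3 are the reddest, with medians of 0.39 and 0.56.

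The proliferation markers showed this most clearly. Mki67, which encodes the Ki-67 antigen that coats mitotic chromosomes, had 1.11, 4.30 and 1.71 FPKM in the Sham libraries, 1.63, 1.87 and 1.10 in the CPIP libraries, and 0.95, 1.89 and 3.62 in CPIP+EA. Top2a, the DNA topoisomerase that untangles sister chromatids, had 1.04, 3.18 and 1.59 in Sham, 1.29, 1.73 and 0.86 in the CPIP libraries, and 1.10, 1.77 and 3.45 in CPIP+EA. In both genes Sham 2 and CPIP+EA 3 stood above the other 7 libraries, and the 3 groups overlapped. The ratio of the highest to the lowest library was 4.53 for Mki67, the widest of the 37 genes with no library at 0, and 4.01 for Top2a, and its median over the 37 genes was 2.44.

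Among the replication genes, Pcna was at 31.21, 35.99 and 32.66 FPKM in Sham, 31.56, 31.64 and 32.18 in the CPIP libraries, and 29.16, 31.24 and 42.74 in CPIP+EA. Its highest library was 1.47 times its lowest. The helicase subunits Mcm2, Mcm3 and Mcm6 and the ribonucleotide reductase subunit Rrm2 also had Sham 2 and CPIP+EA 3 as their highest libraries, with 3.14 between the highest and lowest library of Rrm2. Tyms, the thymidylate synthase, was highest in Sham 2 at 6.31 FPKM and had 5.12 in CPIP+EA 3.

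Of the genes that drive entry into mitosis, Ccnb1 (cyclin B1) had 2.13, 3.25 and 2.37 FPKM in Sham, 2.75, 2.71 and 2.20 in the CPIP libraries, and 2.10, 2.27 and 4.07 in CPIP+EA. Ccnb2, the second B-type cyclin, had 1.38, 2.50 and 1.76 in Sham, 1.32, 2.64 and 1.05 in the CPIP libraries, and 0, 0.79 and 3.81 in CPIP+EA, so that the lowest and the highest value of the 9 libraries both came from the CPIP+EA group. Ccna2 (cyclin A2) and Cdk1, the kinase both cyclins bind, had Sham 2 and CPIP+EA 3 as their highest libraries. Foxm1, the transcription factor of late cell-cycle genes, did not, with 1.26 FPKM in Sham 2 and 1.91 in CPIP+EA 3.

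The mitotic kinases were the least uniform role, with 3 of 7 genes highest in Sham 2 and CPIP+EA 3. These were Aurkb, the kinase of the chromosomal passenger complex, and the checkpoint kinases Bub1 and Bub1b. Aurka had 9.93, 9.50 and 9.91 FPKM in Sham, 10.49, 9.93 and 10.30 in the CPIP libraries, and 11.17, 10.45 and 10.83 in CPIP+EA. With a ratio of 1.18 between its highest and lowest library it was the flattest of the set, and Sham 2 was its lowest library. For Melk, at a mean of 0.391 FPKM, this ratio was 1.65.

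The exit and spindle genes followed the common order. Ube2c, the ubiquitin-conjugating enzyme of the anaphase-promoting complex, had 1.72, 3.21 and 2.25 FPKM in Sham, 2.05, 2.58 and 1.65 in the CPIP libraries, and 2.12, 2.30 and 3.81 in CPIP+EA, and Cdc20, the activator of that complex, had the same highest pair of libraries. Tpx2, a spindle assembly factor, had 1.95, 4.38 and 2.32 in Sham, 1.83, 3.13 and 1.60 in the CPIP libraries, and 2.49, 3.03 and 4.95 in CPIP+EA. The pair was also highest for Nusap1, Prc1 and Ect2, which act on spindle microtubules and in cytokinesis, but not for the actin-binding protein Anln.

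Among the kinesins, Kif20a, a motor of the midzone of the dividing cell, had 2.25, 3.14 and 2.51 FPKM in Sham, 2.83, 2.28 and 2.58 in the CPIP libraries, and 2.84, 3.11 and 4.00 in CPIP+EA. Of the 5 kinesins, 4 had Sham 2 and CPIP+EA 3 highest, the exception being Kif2c. Of the 4 kinetochore genes 3 did, the exception being Nuf2, with 1.20, 1.38 and 1.54 in Sham, 1.08, 1.66 and 1.62 in the CPIP libraries, and 0.90, 1.41 and 2.34 in CPIP+EA. Nuf2 and Ndc80 encode subunits of the same complex, which links kinetochores to microtubules.

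**Figure D2:**
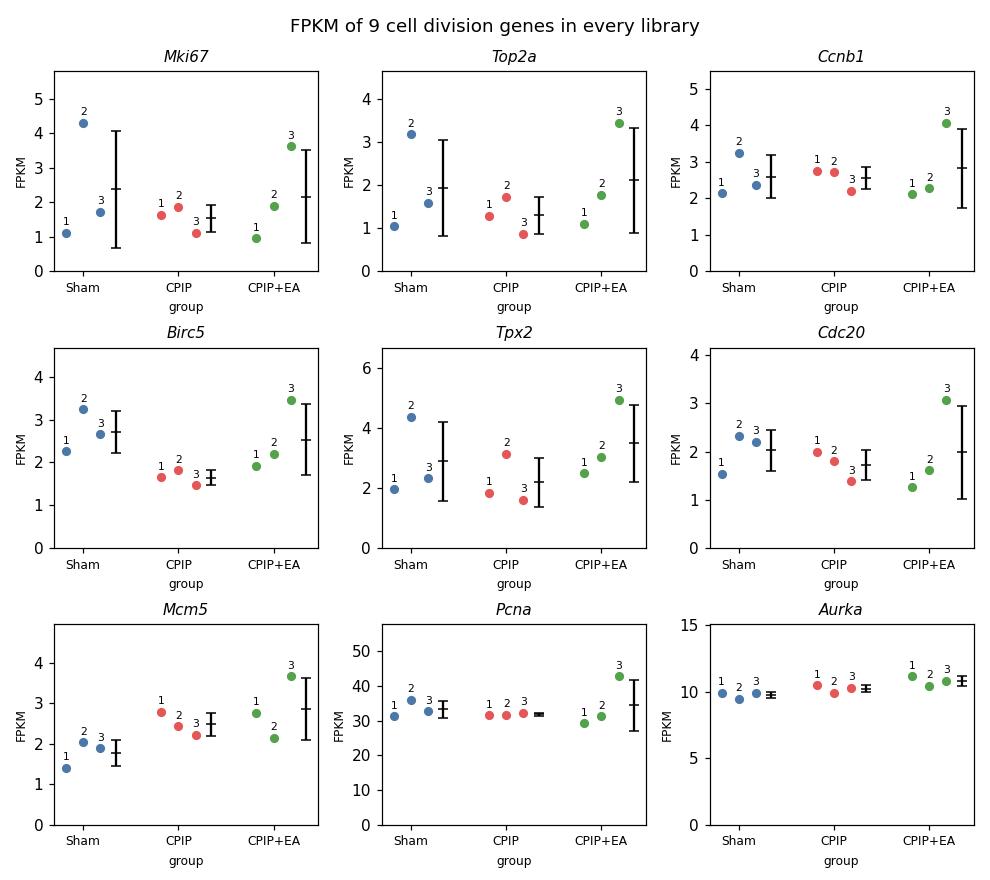
FPKM of 9 cell division genes in every library (points, numbered by replicate), with the mean and SD of each group of 3 in black and each axis starting at 0. Sham 2 and CPIP+EA 3 are the highest points of their groups for 8 of the genes, while Aurka stays between 9.50 and 11.17 FPKM.

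The groups were compared on log2(FPKM + 0.5) with limma in 1 fit over the 9 libraries, and a gene was called differentially expressed at a Benjamini-Hochberg adjusted p under 0.01 with at least a 1.5-fold difference. For CPIP against Sham, 0 of the 38 genes were called, with 0.355% of all tested genes called, and the lowest adjusted p of the set in limma was 0.371. With limma's unadjusted p under 0.05 there was 1 gene, Birc5, against 8.66% of all genes in either direction and 4.06% in the same direction. There were 2 such genes without Sham 1, without CPIP+EA 2 or without CPIP+EA 3, and without Sham 2 the single such gene was Mcm5 in place of Birc5. The log2 fold change was below 0 for 31 genes and above 0 for 7, with a median of -0.17, where 47.9% of all genes were above 0 and their median was -0.0064. Without Sham 2, 16 of the 38 genes changed sign, 23 were above 0 and the median was 0.042.

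Birc5 encodes survivin, a subunit of the chromosomal passenger complex. It had 2.26, 3.24 and 2.66 FPKM in Sham, 1.65, 1.81 and 1.46 in the CPIP libraries, and 1.92, 2.20 and 3.47 in CPIP+EA. The 3 CPIP libraries lay below every Sham library and below every CPIP+EA library, which themselves overlapped. The log2 fold change for CPIP against Sham was -0.58 ± 0.19 (SE), with an unadjusted p of 0.0146 and an adjusted p of 0.371 in limma, which did not pass. Without Sham 2 the log2 fold change was -0.47, with an unadjusted p of 0.0577 in limma. Over the alternative settings it stayed between -0.69 and -0.47, with Benjamini-Hochberg adjusted p from limma between 0.124 and 0.78. Groups that did not overlap in this direction were found for 7.9% of all tested genes.

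For CPIP+EA against CPIP, which uses the same CPIP libraries, 0 of the 38 genes were called and 0% of all tested genes were, and the lowest adjusted p of the set in limma was 0.996. With limma's unadjusted p under 0.05 there was again 1 gene, Birc5, against 4.29% of all genes in either direction and 2.22% in the same direction, with a log2 fold change of 0.47 ± 0.19 (SE) and an unadjusted p of 0.0372. Without CPIP+EA 1 there were 6 such genes, and without Sham 2 or CPIP 2 there were 2, and without Sham 3, CPIP 1 or CPIP 3 there were 0. Without CPIP+EA 3 the log2 fold change of Birc5 was 0.26, with an unadjusted p of 0.128 in limma. The single gene under 0.05 was then Ccnb2, which was lower in CPIP+EA at a log2 fold change of -1.37 and is listed at 0 in CPIP+EA 1. The log2 fold change was above 0 for 35 genes, with a median of 0.19, where 54% of all genes were above 0 and their median was 0.012. Without CPIP+EA 3, 17 genes changed sign, 18 were above 0 and the median was -0.011.

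Nusap1, which bundles spindle microtubules, was the single gene of the set with a difference of at least 1.5-fold in this comparison, against 0.96% of all genes in this direction. It had 0.98, 2.40 and 1.13 FPKM in Sham, 1.17, 1.03 and 0.84 in the CPIP libraries, and 1.25, 1.62 and 2.89 in CPIP+EA. Its log2 fold change against CPIP was 0.63 ± 0.30 (SE), with an adjusted p of 0.996 in limma, and it was 0.35 without CPIP+EA 3, under 1.5-fold. All 3 CPIP+EA libraries lay above all 3 CPIP libraries for Nusap1, Birc5 and Kif20a, a separation in this direction that 4.84% of all genes had. With 3 libraries in each group, the SE of a fold change ran from 0.062 (Aurka) to 0.65 (Ccnb2) on the log2 scale, with a median of 0.24.

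For CPIP+EA against Sham, 0 of the 38 genes were called, with 0.483% of all tested genes called. With limma's unadjusted p under 0.05 there was 1 gene, Mcm5, against 12.2% of all genes in either direction and 6.59% in the same direction. There were 2 such genes without Sham 2 or without CPIP+EA 1. The log2 fold change was above 0 for 28 genes, with a median of 0.07, where 50.4% of all genes were above 0. Without CPIP+EA 3 it was above 0 for 7 genes and its median was -0.16, and without Sham 2 it was above 0 for 35 and its median was 0.24. Ccnb2 was the single gene with at least a 1.5-fold difference, against 1.31% of all genes in this direction, at a log2 fold change of -0.73 ± 0.65 (SE) and an adjusted p of 0.715 in limma. That value includes CPIP+EA 1, in which it is listed at 0. It was 0.014 without CPIP+EA 1 and -1.54 without CPIP+EA 3, and the fold was under 1.5 also without Sham 2 and with a pseudocount of 1.

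Mcm5, a subunit of the replicative helicase, departed from the common order. It had 1.40, 2.03 and 1.88 FPKM in Sham, 2.78, 2.43 and 2.22 in the CPIP libraries, and 2.76, 2.14 and 3.66 in CPIP+EA. Every library of CPIP and of CPIP+EA lay above every Sham library, a separation in this direction that 7.98% of all genes had between CPIP and Sham. The lowest of them, 2.14, lay close to the 2.03 of Sham 2. The log2 fold change for CPIP+EA against Sham was 0.55 ± 0.18 (SE), with an unadjusted p of 0.0143 and an adjusted p of 0.253 in limma. Without Sham 1 its unadjusted p in limma was 0.0574 and 0 genes of the set were under 0.05 in this comparison. Without CPIP+EA 3 it was 0.0502, and Ccnb2, lower in CPIP+EA, was the single gene under 0.05. For CPIP against Sham the log2 fold change was 0.40 ± 0.18 (SE), with an adjusted p of 0.601 in limma. Aurka was the other gene with all CPIP+EA libraries above all Sham libraries, a separation in this direction that 8.87% of all genes had, at a log2 fold change of 0.14 ± 0.062 (SE).

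**Figure D3:**
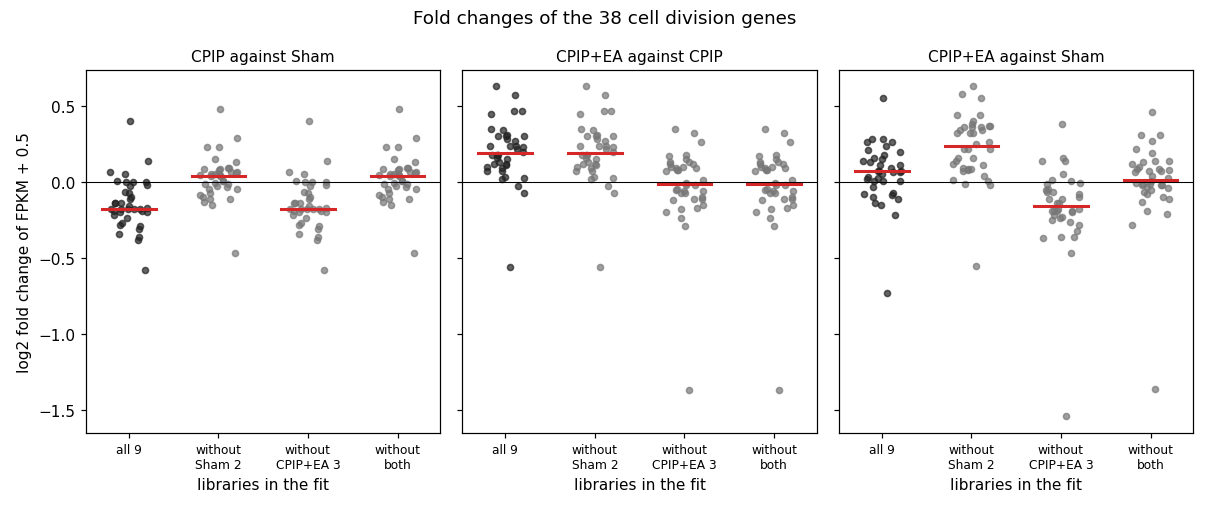
Log2 fold changes of the 38 genes (points) in the 3 comparisons, fitted with all 9 libraries, without Sham 2, without CPIP+EA 3 and without both, with the median as a red line. The median for CPIP against Sham moves from -0.17 to 0.042 without Sham 2, and that for CPIP+EA against CPIP moves from 0.19 to -0.011 without CPIP+EA 3.

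With both Sham 2 and CPIP+EA 3 left out, the median log2 fold change of the 38 genes was 0.042 for CPIP against Sham, -0.011 for CPIP+EA against CPIP and 0.014 for CPIP+EA against Sham. The call count was 0 in each. This fit was added after the values were seen, and the CPIP+EA and Sham groups then held 2 libraries each.

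Many other genes of the same processes had the same highest libraries. Of 30 further DNA replication genes, 18 had Sham 2 and CPIP+EA 3 as their 2 highest libraries, and of 46 further mitosis genes, 28 did, against the 5% of all genes given above. In none of the 3 comparisons was any of these genes called.

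In the mitosis list, Kif22, a chromosome-binding kinesin, had 2.88, 4.23 and 3.24 FPKM in Sham, 5.04, 5.59 and 5.94 in the CPIP libraries, and 5.56, 6.05 and 7.36 in CPIP+EA. Its log2 fold change for CPIP+EA against Sham was 0.79 ± 0.15 (SE), with an adjusted p of 0.036 in limma. Racgap1, a regulator of cytokinesis, had 7.51, 8.62 and 6.34 in Sham, 5.23, 4.24 and 4.40 in the CPIP libraries, and 5.39, 6.27 and 5.94 in CPIP+EA. Its log2 fold change for CPIP against Sham was -0.64 ± 0.12 (SE), with an adjusted p of 0.0644 in limma. Both genes had Sham and CPIP libraries that did not overlap, as had 7.98% of all genes in the direction of Kif22 and 7.9% in that of Racgap1.

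Of the 25 tested genes of G1 phase, cell-cycle arrest and exit, 6 had Sham 2 and CPIP+EA 3 as their highest libraries, against 5% of all genes, and 12 were highest in CPIP+EA 3, against 20.3%. In this list 2 genes were called, both higher in CPIP and in CPIP+EA than in Sham, where 0.355% and 0.483% of all tested genes were called. Gadd45a, a stress-induced inhibitor of cell-cycle progression, had 20.10, 22.14 and 20.56 FPKM in Sham, 55.89, 52.29 and 60.14 in the CPIP libraries, and 65.94, 63.15 and 57.69 in CPIP+EA. It rose in CPIP against Sham by a log2 fold change of 1.40 ± 0.074 (SE), with an adjusted p of 2.66e-05 in limma, and in CPIP+EA against Sham by 1.55 ± 0.074, with an adjusted p of 1.09e-05 in limma. It was called in all 21 alternative settings in each of these comparisons.

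Cdkn1a, which encodes the cyclin-dependent kinase inhibitor p21, had 3.67, 3.63 and 3.95 FPKM in Sham, 8.69, 11.51 and 10.04 in the CPIP libraries, and 12.36, 9.22 and 8.93 in CPIP+EA. It rose by a log2 fold change of 1.31 ± 0.14 (SE) in both comparisons with Sham, with adjusted p of 0.00257 for CPIP and 0.00201 for CPIP+EA in limma. The libraries of Sham lay far below all others for both genes, and in neither gene was CPIP+EA 3 the highest library. The call for Cdkn1a was kept in 14 of 21 alternative settings for CPIP and 15 of 21 for CPIP+EA. It was lost for CPIP without Sham 1, Sham 2, Sham 3, CPIP 2 or CPIP 3 and for CPIP+EA without Sham 1, Sham 2, Sham 3 or CPIP+EA 2, and for each under 2 further settings, with a highest adjusted p of 0.0204 in limma over all settings. Its log2 fold change over the settings ran from 1.21 to 1.41 for CPIP and from 1.17 to 1.40 for CPIP+EA. CPIP+EA against CPIP gave a log2 fold change of 0.0063 ± 0.14 (SE) for Cdkn1a and 0.15 ± 0.074 (SE) for Gadd45a, and neither was called. Among the other genes of the list, Ccng1 and Mdm2, which like both of these are targets of p53, had log2 fold changes for CPIP+EA against Sham between 0.25 and 0.32 and between 0.26 and 0.36 over the alternative settings, and neither was called.

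Markers of erythroid precursors had their 2 highest values in the libraries that were highest in most of the cell division genes. All 8 erythroid precursor markers tested had Sham 2 and CPIP+EA 3 as their 2 highest libraries, and their summed FPKM was 18.1, 101 and 31.3 in Sham, 26.9, 42.4 and 11.2 in the CPIP libraries, and 13.2, 39.9 and 107 in CPIP+EA. Alas2, the first enzyme of heme synthesis in erythroid cells, had 4.63, 16.54 and 8.24 FPKM in Sham, 5.10, 8.59 and 1.87 in the CPIP libraries, and 3.15, 9.81 and 20.61 in CPIP+EA. Sham 2 was the highest library for 6 of the 8 markers and CPIP+EA 3 for 2, with Alas2 among the latter. For the 38 cell division genes these counts were 9 and 27. None of the 8 markers was at 0 in any library. By the median of its list, the order of the 9 libraries from high to low was CPIP+EA 3, Sham 2, CPIP 2, CPIP+EA 2, Sham 3 and CPIP 1 both for the erythroid markers and for the 38 genes. CPIP 3 came last in both, after Sham 1 and CPIP+EA 1, whose places were exchanged. The T and B lymphocyte markers had the same first 6 libraries in the same order.

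Markers of neutrophils and their precursors were highest in CPIP+EA 3 for all 8 tested genes of 9 listed, and 3 of the 8 had Sham 2 as the next highest. Their summed FPKM was 53.4, 157 and 120 in Sham, 160, 271 and 34.9 in the CPIP libraries, and 68.8, 178 and 644 in CPIP+EA, so that CPIP 2 stood above Sham 2. Elane, the neutrophil elastase made in granulocyte precursors, had 0.21, 1.99 and 0.63 FPKM in Sham, 0.76, 1.67 and 0.35 in the CPIP libraries, and 0.27, 1.92 and 6.72 in CPIP+EA. It was 1 of the 3 with Sham 2 as the next highest library. T and B lymphocyte markers summed to 4.44, 13.2 and 6.75 FPKM in Sham, 5.6, 10.6 and 5.03 in the CPIP libraries, and 2.66, 7.75 and 17.8 in CPIP+EA, and 3 of the 7 genes had CPIP+EA 3 and Sham 2 highest. The B cell gene Cd79a, at 6.80 FPKM in Sham 2 and 8.38 in CPIP+EA 3, took the largest share of both sums. The T cell gene Cd3e had 0.06 FPKM in Sham 2 and was listed at 0 in CPIP+EA 3, and Cd2 had 0.26 and 0.16 there and 0.85 in CPIP 3, its highest library. Cd3g, which like Cd3e encodes a chain of the T cell receptor complex, had 1.19 in Sham 2, its highest library, and 0.64 in CPIP+EA 3. No gene of these 3 lists was called in any comparison, and their part in the levels of the cell division genes was not tested.

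Of the other markers, those of fibroblasts had their highest sums in Sham 2 and CPIP+EA 3, although 1 of the 5 genes had this pair highest, and those of satellite glia, macrophages and endothelial cells had their highest sum in CPIP+EA 3. Neuron markers, all 8 present at means between 42.3 and 2670 FPKM, summed to between 6915 FPKM in CPIP+EA 3 and 8516 in Sham 1. Satellite glia markers summed to between 443 FPKM in CPIP 3 and 533 in CPIP+EA 3, and those of myelinating Schwann cells to between 4608 in CPIP+EA 1 and 11785 in CPIP 1. For macrophage markers the sum was 183 FPKM in CPIP+EA 3 and 86.7 to 128 in the other 8 libraries. Fibroblast markers were highest in Sham 2 at 1078 FPKM, with 912 in CPIP+EA 3, and lowest in CPIP+EA 2 at 445. Endothelial markers summed to between 41.3 FPKM in Sham 2 and 64.3 in CPIP+EA 3, and skeletal muscle markers to 101 FPKM in CPIP 2 and at most 30.8 elsewhere. None of these genes was called in any comparison, and their part in the levels of the cell division genes was not tested either.

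**Figure D4:**
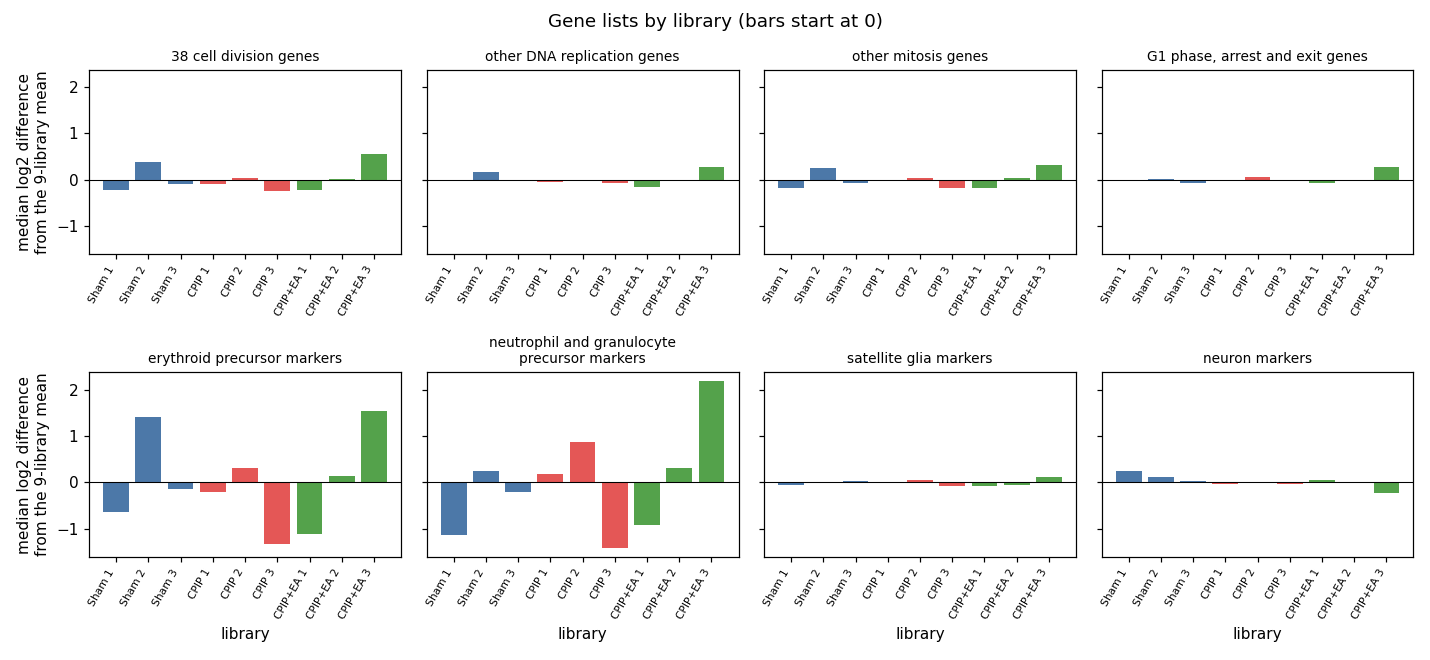
Median difference from the mean of the 9 libraries, in log2(FPKM + 0.5), for 8 gene lists (panels) in each library (bars, colored by group). The 38 cell division genes reach 0.39 in Sham 2 and 0.56 in CPIP+EA 3, the erythroid precursor markers reach 1.41 and 1.53 there, and the neuron markers lie at 0.12 and -0.22.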

How the data were processed

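RNA-Seq of ipsilateral L4–6 DRGs was analysed in 3 libraries of each group (Sham, CPIP, CPIP+EA). RNA came from 3 rats of each group, but the labels do not tie a library to an animal, so p-values measure the spread between these libraries. Library construction used poly(A) selection and short single-end reads, and low-quality and adaptor reads were removed with SOAPnuke. The authors deposited FPKM per gene and library with 2 decimals. Aligner, genome build and handling of reads shared by similar genes are not given in the sources used here. The authors also deposited a log2 ratio, a p-value and a q-value for each pair of groups, which were not used. At the same limits the study itself reported differentially expressed genes for CPIP+EA against CPIP, Elane and Mmp8 among them. The limma fit used here called 0% of all tested genes in that comparison, and the reason for the difference was not tested. Single reads could not be recovered from low FPKM values, so no count test was run and depth was not computed from the files. The study lists nearly equal read totals for the 9 libraries. The FPKM of a library summed to between 445647 and 482940.

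With limma 3.58.1 (R 4.3.3), log2(FPKM + 0.5) was tested using eBayes and a mean-variance trend. Genes whose FPKM averaged under 0.1 were left out. Fold changes are on this scale and understate those of low genes. Two-sided p-values received the Benjamini-Hochberg adjustment over all tested genes. Simulated data with known changes were used to check the fit. Figures used matplotlib in Python. The members and all gene lists were chosen with earlier results of these data known. Values in every library are given for genes with an unadjusted p under 0.05, for the most abundant gene of each role, and, for other lists, for examples among the 4 genes with the smallest p. Values of 1 gene of the replication list are not reported here. Mki67, Top2a, Ccnb2, Nusap1, Tyms, Foxm1 and Cd79a, and the examples within those 4 genes, and the 3 promoters printed, were chosen after values were seen. Tables were made with pandas.

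Alternative settings covered the pseudocount (0.1 and 1), the filter (none, or 1 FPKM on average), the scaling (TPM, quantile normalization, median centring) and the variance trend (none, robust). Further settings blocked on the replicate number, fitted only the 2 groups compared, left out single libraries, or used adjusted p under 0.05 without a fold limit. Of the 27 ways to pair libraries of different groups, the 9 with the same replicate number had correlated deviations between -0.236 and 0.297, so the numbers were not taken as pairs.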

Additional observations from a re-analysis of the deposited data

How the results depend on the processing

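With 0 of the 38 genes called in each comparison, the count stayed at 0 under every alternative run. The number of genes with an unadjusted p under 0.05 was 1 in each comparison. For CPIP against Sham it was 3 with quantile normalization, a TPM scale or median centring, 2 with only the 2 groups compared or without Sham 2 and CPIP+EA 3 together, and between 1 and 2 with each library left out. For CPIP+EA against CPIP it was 3 with quantile normalization, 2 with only the 2 groups compared, and between 0 and 6 with each library left out. For CPIP+EA against Sham it was 2 with a pseudocount of 0.1, no filter, a mean FPKM of at least 1 or without Sham 2 and CPIP+EA 3 together, and between 0 and 2 with each library left out. The cause of these moves was not tested. With the replicate number as a block the count was 2 for CPIP against Sham and 1 in the other comparisons. Every group holds each replicate number, so this block cannot change a fold change. The median log2 fold changes were therefore -0.17, 0.19 and 0.07 with and without it. The call for Cdkn1a against Sham was lost for CPIP and for CPIP+EA with the block and without Sham 2 and CPIP+EA 3 together, and over all settings its log2 fold change in these comparisons stayed between 1.17 and 1.41.

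With each library left out, the median log2 fold change ran from -0.29 to 0.042 for CPIP against Sham, from -0.011 to 0.34 for CPIP+EA against CPIP and from -0.16 to 0.25 for CPIP+EA against Sham. Quantile normalization or a TPM scale left 24 of 38 genes above 0 in the last, against 28. The filter at a mean FPKM of 1 kept 28 of the genes. The files hold no read counts, and no counting error is given for the genes under 1 FPKM.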
